A study of Mus musculus with 15 samples.

Results

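Basal cells of the virgin mouse mammary gland were compared with its mature luminal cells across the genes of a whole-genome Affymetrix array. The 6 arrays compared were taken by title from the 15 of the series: 3 of a basal population enriched for mammary stem cells (MaSC) and 3 of mature luminal cells (ML). The study, which examined RUNX1 in mammary epithelium, profiled 5 sorted populations on 3 arrays each. Luminal progenitors (LP, Lin-CD24hiCD29+CD61+), sorted from the same glands, are given below only as values beside MaSC and ML. The LP arrays entered the estimate of the spread. So did the arrays of Wap-Cre;R26Y females: marked alveolar luminal cells at midgestation, and cells titled alveolar luminal stem/progenitor cells.

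MaSC were Lin-CD24+CD29hi cells and ML were Lin-CD24hiCD29+CD61- cells of adult virgin C57BL/6 females of wildtype genotype, with no treatment named in the labels. Lin- cells lack CD31, CD45 and TER119, which mark endothelial cells, leukocytes and erythroid cells. Thoracic and inguinal glands of 3 mice gave 3 cell suspensions, and both populations were sorted from each. The MaSC gate takes in every basal cell that passes it, myoepithelial cells included, so these arrays measured a mixed basal population and not purified stem cells. In such bulk RNA, fewer cells of a type and less RNA per cell cannot be told apart. The p-values below measure the spread between arrays alone. That spread was estimated within each population over every array of the series, the LP and alveolar arrays included.

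The mammary duct has an inner layer of luminal cells that faces the lumen and an outer layer of basal cells that sits on the basement membrane. Basal cells contract in response to oxytocin to eject milk, help build the basement membrane, and include cells that can regenerate a gland on transplantation. Many mature luminal cells carry the receptors for estrogen and progesterone and pass hormone signals on to their neighbours as secreted ligands.

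Intensities were dChip-normalised by the authors and are given on a linear scale. Median intensities were 170.8, 162.3 and 152.2 on the MaSC arrays and 137.2, 136.8 and 138.6 on the ML arrays. Over all genes tested, log2 intensities correlated at 0.943 to 0.973 among MaSC arrays, at 0.979 to 0.983 among ML arrays and at 0.695 to 0.822 between the populations. The genes behind the sort are given as a description, since the gates used their proteins. Itgb1, which encodes CD29, measured 3337, 4012 and 4047 in MaSC and 2537, 2055 and 2297 in ML. Itgb3, which encodes CD61, measured 2209, 1385 and 2217 in MaSC and 102, 95.5 and 145 in ML. Cd24a measured 15054, 14591 and 12908 in MaSC and 16321, 16769 and 17509 in ML. Basal markers outside the sort (Krt5, Krt14, Trp63, Acta2) were high on every MaSC array and luminal ones (Krt8, Krt18, Esr1, Pgr) on every ML array, but the luminal keratins were bright on the MaSC arrays too, as given below.

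Of 12143 genes tested, 7228 (59.5%) differed between MaSC and ML at an adjusted p under 0.05, by limma with Benjamini-Hochberg adjustment over all of them. MaSC were higher for 3293 genes (27.1%) and lower for 3935 (32.4%), and the median difference over all genes was -0.07 on the log2 scale. With each array centred on its own median, only 27.9% of the called genes were higher in MaSC, against 45.6% as deposited, and the median over all genes shifted by 0.23, to -0.31. Of 19 housekeeping genes tested, 2 were higher and 2 lower as deposited (median -0.06 log2). After centring, 1 was higher and 12 were lower (median -0.30 log2). With a 2-fold minimum, 1642 genes (13.5%) were higher and 1748 (14.4%) lower in MaSC, of which 48.4% were higher as deposited and 36.5% after centring. The counts were near even, but the sizes of the differences were not. At 10-fold or more, 537 genes were higher in MaSC and 32 were lower, and with 16 added to each intensity, which damps the folds of dim genes, 451 were higher and 11 lower. At 50-fold or more, 145 genes were higher, 81 with 16 added, and 0 were lower, so that the largest folds below depend on how low ML values are treated. The MaSC and ML arrays did not overlap for 8008 genes, 65.9% of those tested.

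**Figure D1:**
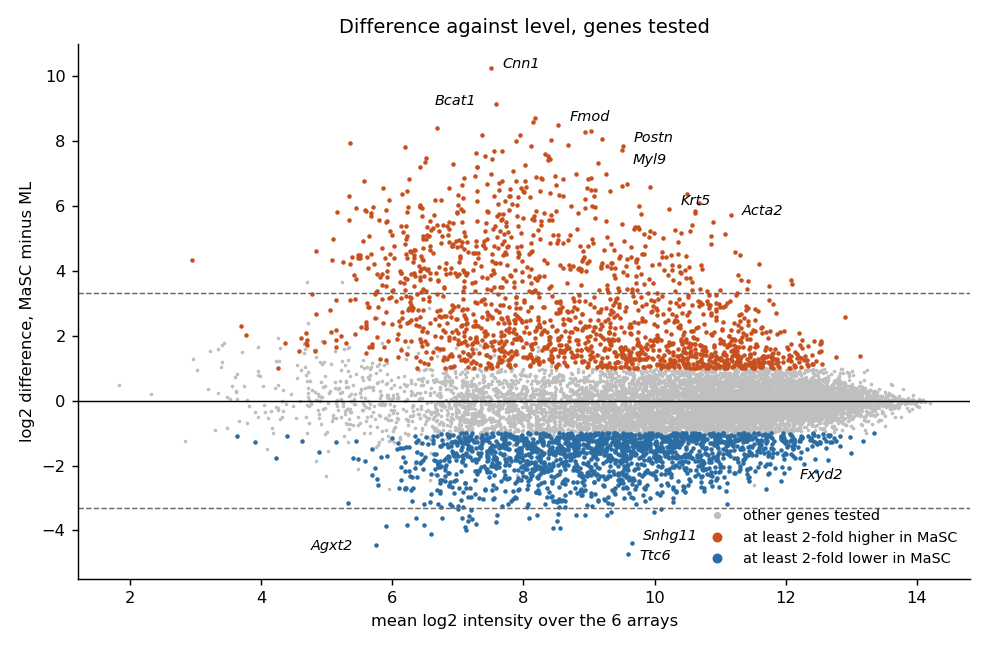
Difference between MaSC and ML (log2, positive where MaSC were higher) against the mean log2 intensity of the 6 arrays, 1 point per gene tested, with the dashed lines at a 10-fold difference and the genes called at 2-fold or more in colour. Of the genes called, 537 lie past the upper line, at mean intensities from dim to bright, and 32 lie past the lower one.

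Calponin (Cnn1), which binds actin and restrains myosin in smooth muscle, measured 5775, 6071 and 7270 in MaSC and 6.15, 8.66 and 2.73 in ML. Every MaSC array was above every ML array, where the gene was near the floor of the array. The difference was 1206-fold (adjusted p = 6.88e-06), or 293-fold with 16 added. Smooth muscle alpha-actin (Acta2) measured 16568, 16933 and 16364 in MaSC and 262, 271 and 449 in ML, a difference of 52.4-fold (adjusted p = 9.38e-07). The myosin heavy chain Myh11 measured 5995, 6484 and 6384 in MaSC and 16.4, 38.5 and 30.5 in ML, 234-fold higher, or 145-fold with 16 added. The regulatory light chain Myl9 measured 10137, 10234 and 11221 in MaSC and 43.9, 40 and 69.4 in ML, 212-fold higher. For none of these genes did the arrays overlap, and the 3 MaSC arrays lay close together at the top of the range for Acta2.

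Of 26 smooth muscle contractile genes tested, 22 were higher in MaSC, against 27.1% of all genes, and 1 was lower, against 32.4%. Their median difference was 3.06 log2 and the arrays did not overlap for 23 of them, against 65.9% of all genes. These shares, with the median of -0.07 over all genes, are the background for each list below. The gamma-actin of smooth muscle (Actg2) was 158-fold higher, myosin light chain kinase (Mylk), which switches on contraction, 57.4-fold, leiomodin (Lmod1) 57.6-fold and transgelin (Tagln) 44.9-fold. Other members differed less: tropomyosin 2 (Tpm2) was 12.1-fold higher, smoothelin (Smtn) 8.15-fold, caldesmon (Cald1) 7.86-fold and filamin A (Flna) 4.21-fold. The member that was lower was Myl6, the essential light chain that non-muscle myosin also uses. It measured 2493, 2304 and 2844 in MaSC and 4542, 3682 and 4017 in ML, 1.6-fold lower with no overlap (adjusted p = 0.00211). Vinculin (Vcl), which ties actin to adhesion sites, measured 10733, 10737 and 9933 in MaSC and 9442, 10305 and 11042 in ML and was not called (adjusted p = 0.752).

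**Figure D2:**
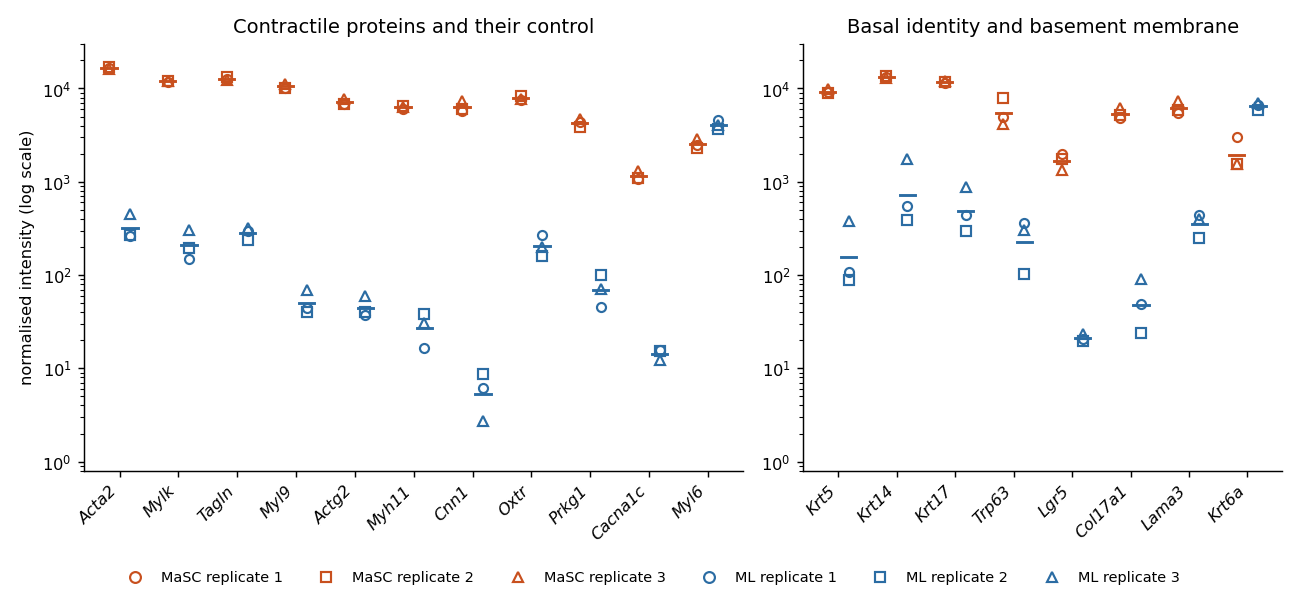
Intensity on each array (log axis) of contractile genes (left panel) and of basal keratins, regulators and adhesion genes (right panel), with MaSC to the left of ML for each gene, 1 symbol per replicate and a bar at the geometric mean. Acta2 sits between 16364 and 16933 in MaSC and between 262 and 449 in ML, while Myl6 and Krt6a are the genes of these panels whose ML arrays sit above their MaSC arrays.

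Smooth muscle genes are known targets of serum response factor (Srf), which binds the CArG box. RefSeq promoters of GRCm38.p6, from 250 bases before to 50 after each start site, were searched for the CArG box on both strands. It lay in 3 of the 23 smooth muscle genes with a window (13.04%), in 1.81% of all 27025 genes with one, in 2.13% of genes at least 2-fold higher in MaSC and in 1.65% of those at least 2-fold lower. In the other lists with windows its share ran from 0.0% to 16.67% (1 of 6 Schwann cell and nerve markers), with 9.09% (2 of 22) in hormone-sensing effectors. Enrichment was not tested. The boxes of the contractile genes are shown because their genes moved apart: Myl9 was far higher in MaSC, Myl6 was lower and Vcl was not called. Those of Srf itself and of the early response genes Egr2 and Dusp5 follow, as known targets of the same factor. Capitals mark the CArG box, and bases run 5′ to 3′ on the gene's strand.
Myl9: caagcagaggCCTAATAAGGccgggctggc
Myl6: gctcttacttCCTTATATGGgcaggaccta
Vcl: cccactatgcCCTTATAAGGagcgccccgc
Srf: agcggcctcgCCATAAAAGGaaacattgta
Egr2: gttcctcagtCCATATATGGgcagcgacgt
Dusp5: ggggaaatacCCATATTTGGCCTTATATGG
The Myl9 box lies at chr2:156775303-156775312 on the plus strand, 161 bases before the start site, and that of Myl6 at chr10:128493050-128493059 on the minus strand, 50 bases before it. The Vcl box lies at chr14:20929171-20929180 (plus strand), the Srf box at chr17:46556215-46556224 (minus strand) and the Egr2 box shown at chr10:67537797-67537806 (plus strand). The paired Dusp5 boxes follow each other at chr19:53529063-53529072 and chr19:53529073-53529082 (plus strand). Srf has a further box at chr17:46556235-46556244 and Egr2 one at chr10:67537494-67537503. A match of letters is a description of the promoter, not a measured binding site.

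The factor Srf itself measured 3751, 3526 and 3398 in MaSC and 2684, 3103 and 3585 in ML and was not called (adjusted p = 0.205). The cofactor Mrtfa was 2.09-fold higher and its relative Mrtfb 1.38-fold lower. Myocd, the muscle-restricted cofactor, was below the filter on low values, at 42, 58.9 and 103 in MaSC and 25.1, 21.9 and 9.87 in ML. Of the Hippo pathway, whose factors read tension in the cell, Tead1 was 3.34-fold higher and Tead2 3.67-fold lower, while Wwtr1, which encodes TAZ, was 1.95-fold higher. Their targets Ccn2 and Ankrd1 were 6.8-fold and 6.94-fold higher.

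The oxytocin receptor Oxtr, through which contraction is started, measured 7505, 8393 and 7638 in MaSC and 272, 161 and 199 in ML. All MaSC arrays were well above the ML arrays, a 38.1-fold difference (adjusted p = 1.81e-05). Of 25 contraction receptors and calcium signalling genes, 11 were higher and 6 lower, with a median of 0.01 log2. The calcium channel Cacna1c was 80.3-fold higher, the cGMP-dependent kinase Prkg1, which relaxes smooth muscle, 63-fold, and Kcnmb1, a subunit of the calcium-activated potassium channel, 36.5-fold. The brakes on G-protein signals Rgs4 and Rgs5 were 228-fold and 27.1-fold higher (Rgs4 34.7-fold with 16 added). Endothelin receptor B (Ednrb) was 8.23-fold higher, while the ligand endothelin 1 (Edn1) was 3.35-fold lower. The cation channel Trpc1 was 6.09-fold higher and its relative Trpc6 6.41-fold lower.

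Basal keratins and regulators of basal identity were higher in MaSC in 22 of 26 genes tested and lower in 1 (2 without MaSC replicate 1 or MaSC replicate 2), with a median of 3.37 log2. Their mean log2 intensity was 11.78, 11.86 and 11.86 on the MaSC arrays and 8.69, 7.96 and 8.79 on the ML arrays. Keratin 5 (Krt5) measured 9061, 8894 and 9884 in MaSC and 109, 88 and 384 in ML, 60-fold higher (adjusted p = 3.44e-05). Keratin 14 (Krt14) measured 13199, 13476 and 13007 in MaSC and 553, 388 and 1737 in ML, 18.4-fold higher (adjusted p = 0.000102). The arrays did not overlap for either gene, and the ML values spread more than the MaSC values, with ML replicate 3 highest. Trp63, the master regulator of stratified and basal epithelia, measured 4909, 7822 and 4169 in MaSC and 365, 103 and 304 in ML, 24.1-fold higher (adjusted p = 2.04e-05). Krt17 was 24.1-fold, Krt15 9.42-fold and Krt16 2.83-fold higher.

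Krt6a, a keratin of progenitor and injured epithelium, went the other way, at 3009, 1570 and 1554 in MaSC and 6589, 5887 and 6992 in ML, 3.33-fold lower with no overlap (adjusted p = 0.00327). Lgr5, the R-spondin receptor, measured 1963, 1762 and 1340 in MaSC and 20.8, 19.8 and 23.2 in ML, 78.6-fold higher, and Lgr6 was 6.26-fold higher. The protein C receptor Procr measured 2174, 2605 and 4078 in MaSC and 281, 78 and 155 in ML, 18.9-fold higher. P-cadherin (Cdh3), which joins basal cells to each other, was 11.3-fold higher and the peptidase CD10 (Mme) 8-fold. Igfbp3, which binds insulin-like growth factors, measured 9387, 9630 and 9594 in MaSC and 25.1, 20.4 and 89.5 in ML, a 267-fold difference (177-fold with 16 added). Vimentin (Vim), an intermediate filament of mesenchymal cells that basal mammary cells share, was 35.1-fold higher. Caveolin 1 (Cav1) was not called, at 7590, 7764 and 6291 in MaSC and 6786, 6828 and 6099 in ML (adjusted p = 0.612).

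Basement membrane genes were higher in MaSC in 18 of 27 tested and lower in 1 (2 without ML replicate 3 or with 9 arrays in the fit, and 3 after median centring), with a median of 1.08 log2. Type XVII collagen (Col17a1), a transmembrane anchor of the hemidesmosome, measured 4851, 5262 and 6118 in MaSC and 48.9, 23.8 and 90.9 in ML, 114-fold higher (adjusted p = 2.12e-05). The type IV collagen chains that form the membrane's network stood far apart. Col4a1 measured 9248, 9402 and 11297 in MaSC and 297, 278 and 515 in ML, 28.5-fold higher, and Col4a2 9179, 8671 and 10858 in MaSC and 94, 71.3 and 150 in ML, 95-fold higher. Of the laminin chains, Lama1 was 46.2-fold, Lamb1 17.6-fold, Lama3 17.5-fold, Lama4 12.7-fold, Lamb3 7.94-fold and the shared gamma chain Lamc1 1.94-fold higher. Perlecan (Hspg2), Col18a1, the anchoring fibril collagen Col7a1 and nidogen 1 (Nid1) were 17.3-fold, 33.1-fold, 8.48-fold and 5.42-fold higher.

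The hemidesmosome itself was not higher throughout. Its integrin pair measured 8879, 9575 and 8340 (Itga6) and 1216, 1037 and 1811 (Itgb4) in MaSC and 8360, 7920 and 8822 (Itga6) and 1114, 971 and 664 (Itgb4) in ML, and neither gene was called (adjusted p = 0.344 and 0.0952). Plectin (Plec), which links hemidesmosomes to keratin, was 1.25-fold lower in MaSC. Dystroglycan (Dag1), a laminin receptor, was not called (adjusted p = 0.062) except without MaSC replicate 3 (adjusted p = 0.036). Of 17 integrin genes tested, Itgb1 and Itgb3 of the gates included, 9 were higher and 1 lower. The collagen-binding Itga1 measured 3148, 3720 and 3552 in MaSC and 33, 36 and 69.7 in ML, 79.5-fold higher. The tenascin-binding Itga9 was 79.4-fold higher, Itga8 8.67-fold, the fibronectin receptor chain Itga5 4.68-fold and the laminin receptor chain Itga3 1.93-fold. Itgb6, which pairs with the alpha-v chain in epithelia, was the member that was lower, by 2.5-fold. The alpha-v chain Itgav was not called (adjusted p = 0.162).

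Fibrillar and interstitial matrix genes formed the list with the highest median, 4.92 log2, with 32 of 34 higher in MaSC and 1 lower. Their mean log2 intensity was 10.37, 10.38 and 10.70 on the MaSC arrays and 5.94, 5.66 and 6.38 on the ML arrays. On the LP arrays it was 10.39, 10.17 and 9.87, near the MaSC values, so the list set ML apart more than it set MaSC apart. Fibromodulin (Fmod), which steers collagen fibril assembly, measured 5706, 6236 and 9755 in MaSC and 14.3, 23.5 and 22.2 in ML, 359-fold higher, or 197-fold with 16 added. Periostin (Postn) measured 10636, 11422 and 11267 in MaSC and 35.4, 28.7 and 110 in ML, 231-fold higher. Col14a1, a collagen that coats fibrils, measured 6079, 6220 and 5469 in MaSC and 19.1, 6.91 and 21.8 in ML, 415-fold higher (190-fold with 16 added). None of these genes had overlapping arrays. Col5a2 was 287-fold, elastin (Eln) 89-fold, Col6a2 73.6-fold, biglycan (Bgn) 54.9-fold, versican (Vcan) 55.5-fold and tenascin C (Tnc) 51.8-fold higher, and lysyl oxidase (Lox), which cross-links collagen and elastin, 94.3-fold. The member that was lower was Col6a3, at 1477, 354 and 164 in MaSC and 5580, 1980 and 3953 in ML, 7.98-fold. Its partner chain Col6a1 was 22.4-fold higher.

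The type I collagen chain Col1a1 measured 316, 721 and 570 in MaSC and 128, 93.8 and 74.1 in ML, 5.26-fold higher, and lumican (Lum) 61.2, 21.7 and 83.7 in MaSC and 20, 13.6 and 17.1 in ML, 2.88-fold higher. Decorin (Dcn) was not called, at 2005, 1456 and 3212 in MaSC and 1923, 1166 and 5624 in ML (adjusted p = 0.815). In LP the same genes averaged 4847 (Col1a1), 3214 (Lum) and 8136 (Dcn). Of 27 fibroblast markers tested, 16 were higher in MaSC and 2 lower, with 4 lower without MaSC replicate 1 and 1 lower without MaSC replicate 2, MaSC replicate 3, ML replicate 1 or ML replicate 3. Their mean log2 intensity was 8.62, 8.15 and 8.37 on the MaSC arrays, 6.44, 5.88 and 6.37 on the ML arrays and 11.40, 11.31 and 10.76 on the LP arrays. The median over the list was 1.85 log2. On the side higher in MaSC, Serping1 measured 3140, 2995 and 3647 in MaSC and 228, 114 and 138 in ML, 21.2-fold higher. Mfap5 measured 782, 885 and 918 in MaSC and 40.5, 26.4 and 21 in ML. The receptor Pdgfra measured 1361, 1339 and 962 in MaSC and 467, 275 and 290 in ML, 3.61-fold higher. In this list 9 markers were not called, and the 2 lower ones are not among these examples. Of 12 markers of pericytes and vascular smooth muscle, 5 were higher and 2 lower (1 without MaSC replicate 2, MaSC replicate 3 or ML replicate 1), with a mean log2 intensity of 8.91, 8.13 and 8.35 in MaSC and 6.73, 6.50 and 6.52 in ML. Among the 5 that were higher, Pdgfrb measured 638, 753 and 805 in MaSC and 18, 19.9 and 18.3 in ML, a 38.9-fold difference. Mcam, also of these 5, was 3.7-fold higher. In the pericyte list 5 markers were not called, and the 2 lower ones are not among these examples. Pericyte markers below the filter included Cspg4 at 55.1, 49.6 and 103 in MaSC and 1.13, 5.65 and 12.5 in ML, Gucy1b1 at 118, 148 and 92.7 in MaSC and 10.5, 10.4 and 5.77 in ML, Des at 85, 49.5 and 93.9 in MaSC and 49.8, 14.9 and 23 in ML, and the channel Kcnj8 at 35.5, 34.3 and 16.8 in MaSC and 21.3, 17.1 and 16.6 in ML. The MaSC arrays of Cspg4 and Gucy1b1 did not overlap with the ML arrays, and those of Des and Kcnj8 did. The part of other cells in these marker values and in the contractile and matrix results was not tested.

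Enzymes that cut or release matrix were mostly higher too. Of 21 matrix proteases and inhibitors, 15 were higher in MaSC and 0 lower, with a median of 2.17 log2. Their mean log2 intensity was 10.85, 10.95 and 11.07 in MaSC, 8.31, 8.02 and 8.17 in ML and 10.85, 10.71 and 10.16 in LP. Gelatinase A (Mmp2) measured 5550, 4512 and 6972 in MaSC and 12.5, 8.3 and 28.7 in ML, 388-fold higher (adjusted p = 2.98e-07), or 178-fold with 16 added. The sheddases Adam12 and Adam19 were 162-fold and 94.1-fold higher and the aggrecanases Adamts5 and Adamts4 58.8-fold and 36-fold. Tissue plasminogen activator (Plat) was 13.6-fold higher. The inhibitors Timp3 and Timp1 were higher as well, by 7.12-fold and 3.25-fold. Mmp14, the membrane protease that activates Mmp2, was not called, at 3201, 3415 and 3568 in MaSC and 3266, 2500 and 1972 in ML (adjusted p = 0.201).

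**Figure D3:**
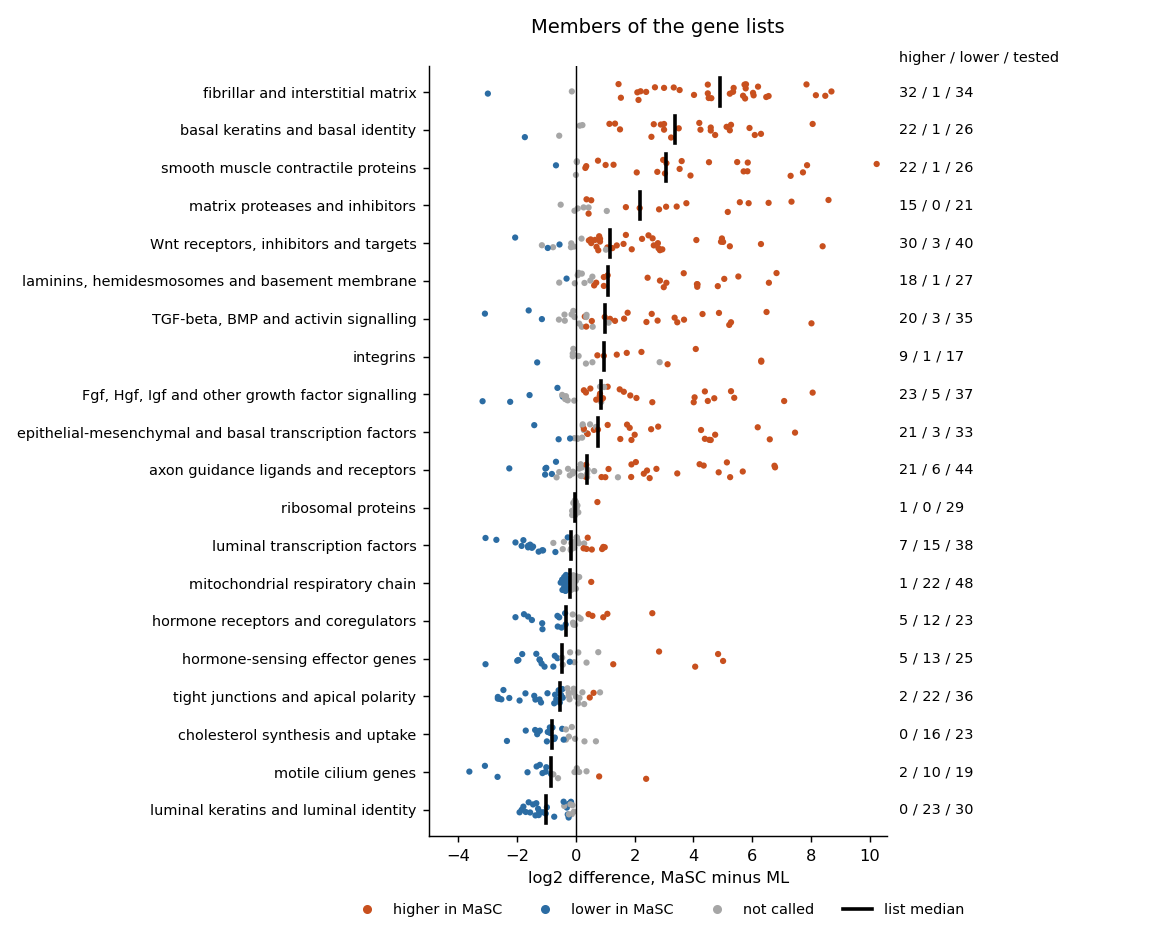
Difference between MaSC and ML (log2, positive where MaSC were higher) for each tested gene of 20 lists, 1 point per gene, with a bar at the list's median and the counts higher, lower and tested beside it. The matrix, basal and contractile lists have medians of 4.92, 3.37 and 3.06, and the luminal identity list has a median of -1.01.

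Wnt ligands split between the populations. Of 9 tested, 5 were higher in MaSC and 3 lower. Wnt10a measured 3260, 3610 and 4663 in MaSC and 11.9, 9.24 and 29.3 in ML, 258-fold higher (adjusted p = 2.27e-05), or 120-fold with 16 added. Wnt9a was 5.25-fold, Wnt11 4.14-fold and Wnt5b 3.13-fold higher. Wnt4, a ligand through which progesterone acts in the gland, measured 1108, 830 and 641 in MaSC and 2787, 4005 and 3412 in ML, 4.01-fold lower (adjusted p = 0.000742). Wnt7b was 4.86-fold lower.

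Receptors, inhibitors and targets of the Wnt pathway were mostly higher in MaSC, 30 of 40 tested against 3 lower (26 and 7 after median centring). The secreted inhibitor Wif1 measured 2352, 2019 and 1409 in MaSC and 9.15, 0.918 and 18.8 in ML, 339-fold higher, or 77.4-fold with 16 added. Another inhibitor, Sfrp1, measured 6143, 5710 and 7410 in MaSC and 198, 128 and 306 in ML, 32.3-fold higher. Axin2, which canonical Wnt signals switch on in many tissues, measured 435, 671 and 415 in MaSC and 21.7, 35.9 and 31 in ML, 17.1-fold higher (adjusted p = 8.36e-05). Each of these genes was high on all 3 MaSC arrays, with no overlap. Among receptors, Fzd1 was 6.99-fold and Fzd7 1.77-fold higher, while the co-receptor Lrp5 was 1.47-fold lower. The receptor kinases for Wnt5a-type ligands were opposed, with Ror1 30.8-fold higher and Ror2 4.19-fold lower. The repressor Tcf7l1 was 7.24-fold higher, and beta-catenin (Ctnnb1) was not called (adjusted p = 0.377).

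Of the Notch pathway, the ligands Dll1, Jag2 and Jag1 were higher in MaSC. The receptor Notch3, the target Hes1, its relative Hes6 and the regulator Dtx4 were lower. Dll1 measured 2312, 3533 and 1928 in MaSC and 47.6, 24.5 and 90.5 in ML, 53.1-fold higher (adjusted p = 4.71e-06). Jag2 measured 2895, 3063 and 4627 in MaSC and 137, 109 and 117 in ML, 28.6-fold higher, and Jag1 was 2.55-fold higher. The receptor Notch3 measured 3886, 1683 and 896 in MaSC and 5790, 5405 and 4750 in ML, 2.94-fold lower (adjusted p = 0.00372). The target Hes1 was 2.11-fold lower, a call that was lost when only the 6 arrays entered the fit, while Hey1, another target, was 2.06-fold higher. Hes6 and the regulator Dtx4 were 3.41-fold and 4.15-fold lower. Notch1 and Notch2 were not called (adjusted p = 0.0899 and 0.636), though Notch1 passed without MaSC replicate 1 (adjusted p = 0.0258). Over the 23 genes of the list, 9 were higher and 4 lower, and 8 and 7 after median centring.

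The ligands and receptors of the ErbB family, which drive duct growth, were divided between the layers, with 9 of 16 tested higher in MaSC and 6 lower. Egfr measured 5161, 5709 and 6381 in MaSC and 674, 611 and 1121 in ML, 7.41-fold higher (adjusted p = 1.99e-06). Erbb3 measured 7140, 4829 and 2183 in MaSC and 10210, 10288 and 9752 in ML, 2.39-fold lower, and Erbb2 was 1.65-fold lower. Among ligands, epiregulin (Ereg) measured 4516, 5582 and 6664 in MaSC and 114, 115 and 184 in ML, 41.2-fold higher, and neuregulin 1 (Nrg1), which Erbb3 binds, 16.8-fold higher. Neuregulin 4 (Nrg4) was 10.8-fold, betacellulin (Btc) 4.65-fold and epigen (Epgn) 2.4-fold lower. The feedback inhibitor Lrig3 was 14.8-fold higher.

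Other growth factor genes were higher in MaSC in 23 of 37 tested and lower in 5. The insulin-like growth factor system stood out among them by its binding proteins: Igfbp2 measured 2200, 3712 and 2369 in MaSC and 22.3, 23.6 and 14.5 in ML, 136-fold higher (75.2-fold with 16 added), and Igfbp6, Igfbp4 and Igfbp7 were 41.9-fold, 26.1-fold and 22.5-fold higher. The receptor Igf1r was 6.04-fold higher and the decoy receptor Igf2r 1.37-fold lower. Hepatocyte growth factor (Hgf) was 20.9-fold higher. The lymphatic growth factors were opposed, with Vegfc 16.1-fold higher and Vegfd 9.06-fold lower. The feedback inhibitor Spry2 was 2.12-fold higher. Fgfr2, the receptor needed for duct branching, was not called, at 9433, 9389 and 8543 in MaSC and 10711, 11770 and 12023 in ML (adjusted p = 0.0857). The mean log2 intensity of this list was 10.58, 10.53 and 10.47 in MaSC and 9.01, 8.84 and 9.19 in ML. In LP it was 10.36, 10.37 and 10.07, nearer to MaSC than to ML.

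Genes of TGF-beta, BMP and activin signalling were higher in 20 of 35 tested and lower in 3, or in 16 and 8 after median centring, and 5 were lower without MaSC replicate 1. The activin-binding follistatin (Fst) measured 8964, 10060 and 8350 in MaSC and 229, 130 and 484 in ML, 37.4-fold higher. The follistatin-like Fstl1 measured 5255, 5436 and 5910 in MaSC and 28.1, 11 and 31.3 in ML, 260-fold higher (145-fold with 16 added). In LP, Fstl1 measured 3777, 3820 and 2258. Ltbp4, which tethers latent TGF-beta to matrix, was 90.1-fold, the co-receptor Tgfbr3 10.9-fold and the TGF-beta induced protein Tgfbi 19.8-fold higher. Of the BMPs, Bmp7 was 29.2-fold and Bmp2 5.29-fold higher. The BMP receptor Bmpr1b measured 365, 168 and 28.2 in MaSC and 1668, 767 and 848 in ML, 8.56-fold lower, and the inhibin chain Inhbb was 2.24-fold lower. Id4, a dominant-negative helix-loop-helix factor of basal mammary cells, measured 4976, 5533 and 5833 in MaSC and 130, 80.6 and 262 in ML, 38.8-fold higher. Tgfbr2 was not called (adjusted p = 0.526).

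**Figure D4:**
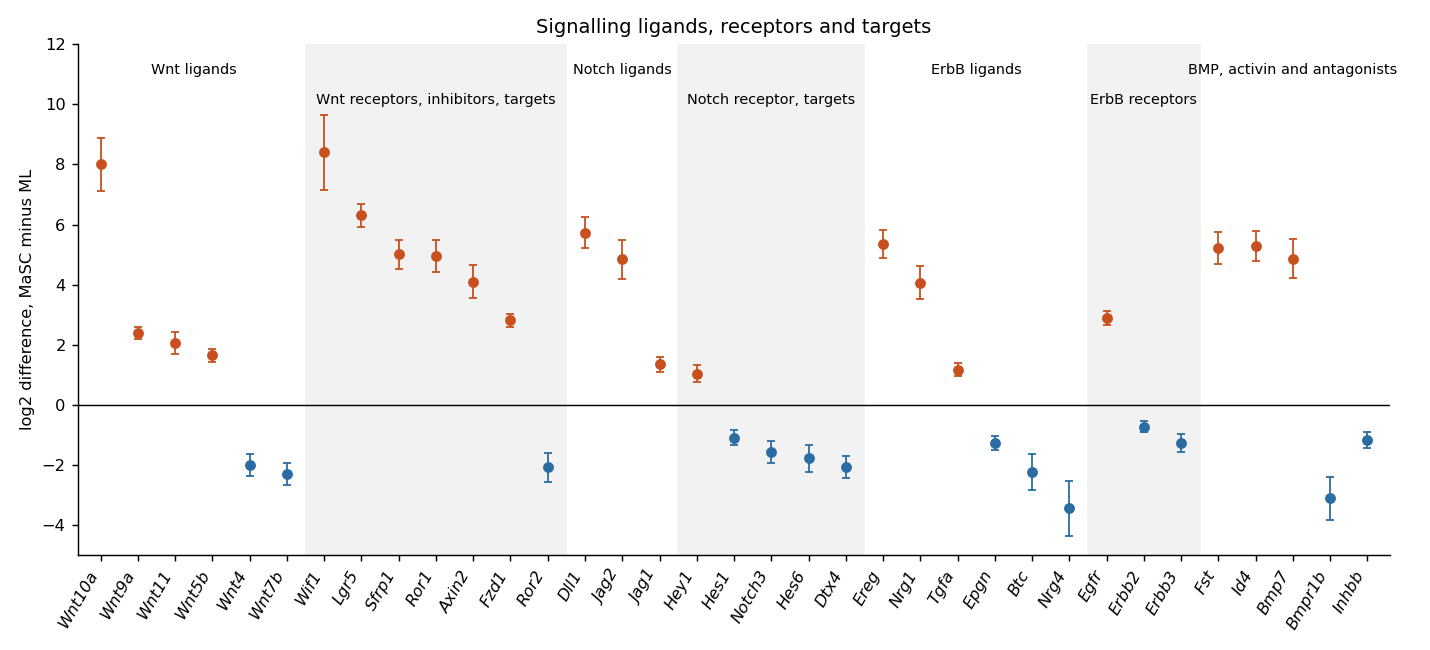
Difference between MaSC and ML (log2, positive where MaSC were higher) with its standard error from the fit, 1 point per gene in 7 groups of ligands, receptors, inhibitors and targets. The Wnt and ErbB ligands lie on both sides of 0 and the Notch ligands shown lie above it, with ligands from Wnt10a at 258-fold higher to Nrg4 at 10.8-fold lower.

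Transcription factors of basal and mesenchymal cells were higher in MaSC in 21 of 33 tested and lower in 3, with a median of 0.75 log2. Their mean log2 intensity was 10.64, 10.66 and 10.53 in MaSC and 8.78, 8.66 and 8.88 in ML. In LP it was 10.10, 10.23 and 9.90, nearer to MaSC than to ML. Slug (Snai2), which basal mammary cells need for stem cell activity, measured 6976, 7298 and 7096 in MaSC and 62.3, 49.2 and 130 in ML, 96.8-fold higher (adjusted p = 6.36e-06). The homeobox factor Irx4 measured 2114, 2532 and 2763 in MaSC and 21.9, 10.3 and 11.8 in ML, 177-fold higher (81.6-fold with 16 added). All MaSC arrays were far above the ML arrays, where Irx4 was near the floor. Prrx1 was 73-fold, Sox7 26.8-fold, the muscle factor Mef2c 23.3-fold, Twist1 20.9-fold and Snai1 6.98-fold higher. Egr2, whose promoter boxes are printed above, was 5.91-fold higher. Meis1 was 2.68-fold lower. Sox9 and Klf5 were not called (adjusted p = 0.0742 and 0.785), though Sox9 passed without ML replicate 3 (adjusted p = 0.0162).

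Luminal transcription factors were lower in MaSC in 15 of 38 tested and higher in 7, with 4 higher without MaSC replicate 2, ML replicate 1 or ML replicate 2. These shares were not far from those of all genes (32.4% lower and 27.1% higher), and the median was -0.17 log2. The arrays did not overlap for 21 of the 38, against 65.9% of all genes. The ets factor Spdef measured 269, 139 and 49.5 in MaSC and 1482, 1324 and 566 in ML, 8.43-fold lower (adjusted p = 0.000849). Msx2 measured 748, 443 and 143 in MaSC and 2734, 2393 and 2022 in ML, 6.53-fold lower. Foxa1, the pioneer factor that opens chromatin for the estrogen receptor, measured 4731, 3211 and 981 in MaSC and 7700, 7255 and 7949 in ML, 3.1-fold lower (adjusted p = 0.00578). The MaSC arrays were spread for Foxa1, with replicate 1 highest and replicate 3 lowest, but all lay under the ML arrays. Grhl1 was 3.45-fold, Stat5b 3.1-fold, Elf3 2.75-fold and Stat5a 1.62-fold lower. Cebpb and Tfap2c were 1.97-fold and 1.91-fold higher. Gata3, which luminal fate requires, measured 5224, 5413 and 5370 in MaSC and 5142, 4599 and 5250 in ML and was not called (adjusted p = 0.403). Elf5, the factor of the alveolar lineage, measured 1325, 330 and 184 in MaSC and 1484, 951 and 1462 in ML (adjusted p = 0.0219), a call lost without MaSC replicate 2, MaSC replicate 3, ML replicate 1 or ML replicate 3 (adjusted p = 0.0738, 0.0925, 0.0652 and 0.0616).

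Estrogen receptor alpha (Esr1) measured 6683, 5090 and 2779 in MaSC and 9915, 10900 and 9517 in ML, 2.22-fold lower (adjusted p = 0.00449). The progesterone receptor (Pgr) measured 5376, 3853 and 1343 in MaSC and 9109, 7953 and 8667 in ML, 2.83-fold lower (adjusted p = 0.00572). MaSC replicate 1 was the highest basal array for both receptors, as for Foxa1. With only the 6 arrays in the fit, Foxa1 and Pgr lost their calls (adjusted p = 0.0553 and 0.0502). Of 23 hormone receptors and coregulators, 5 were higher and 12 lower. The glucocorticoid receptor Nr3c1 was 2.09-fold and the vitamin D receptor Vdr 1.91-fold higher, while the mineralocorticoid receptor Nr3c2 was 2.21-fold lower. Cited1, a coregulator of hormone-responsive luminal cells, measured 2697, 1808 and 678 in MaSC and 4259, 7747 and 7212 in ML (adjusted p = 0.0219), a call that was lost without MaSC replicate 3, ML replicate 2 or ML replicate 3 (adjusted p = 0.0965, 0.0646 and 0.0596).

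Effectors of hormone-sensing cells were lower in 13 of 25 tested and higher in 5, with 7 lower without MaSC replicate 3 and 8 without ML replicate 2 or without ML replicate 3. The water channel Aqp5 was 3.89-fold, stanniocalcin 2 (Stc2) 2.34-fold and the iron exporter ferroportin (Slc40a1) 2.24-fold lower. Carbonyl reductase 2 (Cbr2) was 7.1-fold higher and the hyaluronan receptor Cd44 2.4-fold higher.

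Runx genes and their partners differed little between the layers. Runx1, the factor the study examined, measured 5859, 6306 and 6725 in MaSC and 4392, 5385 and 4948 in ML, 1.29-fold higher (adjusted p = 0.0347), a call that was lost without MaSC replicate 2, MaSC replicate 3, ML replicate 1 or ML replicate 3 (adjusted p = 0.073, 0.102, 0.128 and 0.0657) and after quantile normalisation, median centring or with no filter on low values (adjusted p = 0.0645, 0.548 and 0.0574). Its cofactor Cbfb measured 5422, 6488 and 4452 in MaSC and 5535, 4729 and 5607 in ML and was not called (adjusted p = 0.845). Of 11 genes for Runx factors and corepressors, 5 were higher and 3 lower. The count was 2 higher and 3 lower after centring, and the number lower was 1 without MaSC replicate 2, MaSC replicate 3 or ML replicate 2 and 0 without ML replicate 1. The corepressor Tle1 was 2.13-fold higher.

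Luminal identity genes were lower in MaSC in 23 of 30 tested and higher in 0, with a median of -1.01 log2, and 14 were lower with only the 6 arrays in the fit. The sizes were modest beside those of the basal list. Keratin 7 (Krt7) measured 6817, 4775 and 2868 in MaSC and 10486, 11066 and 10599 in ML, 2.36-fold lower (adjusted p = 0.00122). Keratin 8 (Krt8) measured 14254, 12950 and 13366 in MaSC and 16048, 16023 and 15858 in ML, 1.18-fold lower, and its partner Krt18 16298, 15714 and 14294 in MaSC and 16953, 17191 and 17602 in ML (adjusted p = 0.0501). Without MaSC replicate 1, Krt18 passed the test (adjusted p = 0.0286). Epcam measured 12679, 11884 and 11671 in MaSC and 13128, 13689 and 13964 in ML (adjusted p = 0.0402), and lost its call without MaSC replicate 2, MaSC replicate 3, ML replicate 2 or ML replicate 3 (adjusted p = 0.0944, 0.0994, 0.0875 and 0.111). Epcam also lost it after quantile normalisation (adjusted p = 0.113), with no filter (0.0977), with probe sets averaged (0.127) or those ending in _at preferred (0.0501), with 6 or 9 arrays in the fit (0.169 and 0.0746) and with the replicate block (0.0683). The mean log2 intensity of the list was 11.96, 11.52 and 11.06 on the MaSC arrays and 12.39, 12.39 and 12.41 on the ML arrays. Luminal genes thus had measurable levels in the basal sort and were highest in its replicate 1. The part of luminal cells in the MaSC values was not tested. E-cadherin (Cdh1) was not called, at 11864, 11631 and 10631 in MaSC and 11953, 12282 and 12847 in ML (adjusted p = 0.201).

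Tight junction and apical polarity genes were lower in 22 of 36 tested and higher in 2 (1 without MaSC replicate 1, MaSC replicate 3 or ML replicate 1), with a median of -0.53 log2. Their mean log2 intensity was 10.79, 10.33 and 9.90 on the MaSC arrays and 11.16, 11.15 and 11.11 on the ML arrays, with MaSC replicate 1 again the highest basal array. The claudin Cldn6, which forms the seal between cells, measured 1019, 556 and 157 in MaSC and 2983, 3376 and 1979 in ML, 6.08-fold lower (adjusted p = 0.00132). Of the other claudins, Cldn10 was 5.82-fold, Cldn4 3.78-fold and Cldn3 2.61-fold lower. The serine proteases of luminal membranes Prss8, Tmprss2 and St14 were 3.62-fold, 3.26-fold and 2.38-fold lower. Marveld3, Tjp3 and the polarity kinase Prkcz were 5.54-fold, 4.83-fold and 3.28-fold lower. The scaffold Tjp1, which adherens contacts share, was not called (adjusted p = 0.329).

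**Figure D5:**
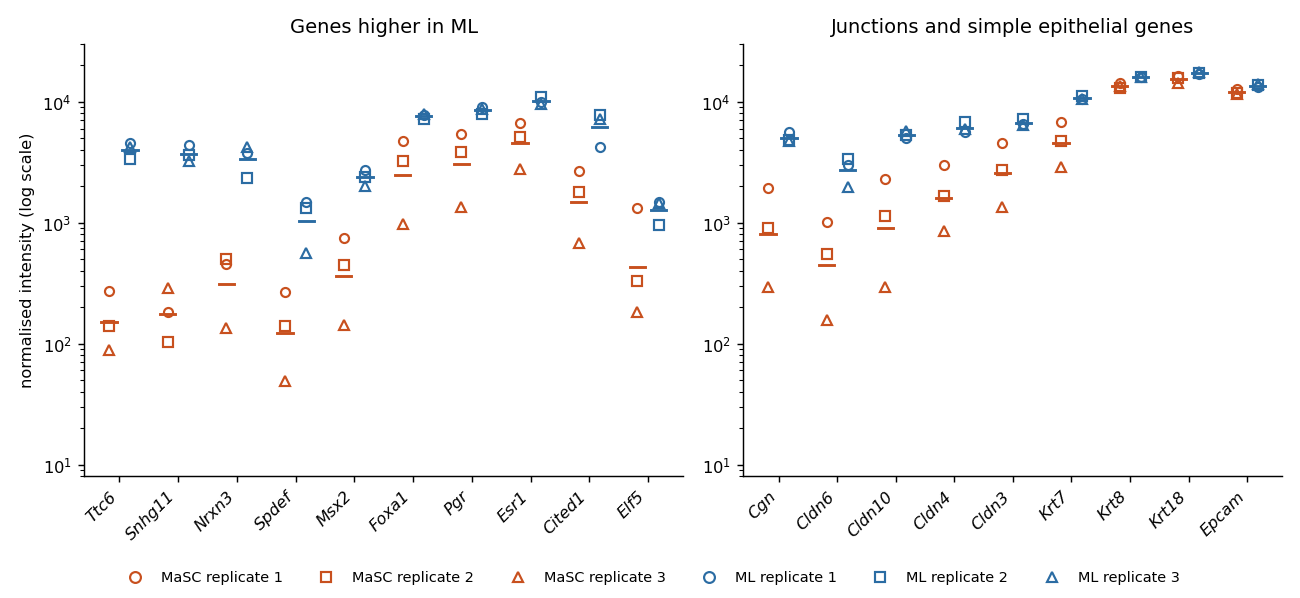
Intensity on each array (log axis) of luminal regulators and of the most ML-high genes (left panel) and of junction genes and luminal keratins (right panel), with MaSC to the left of ML for each gene, 1 symbol per replicate and a bar at the geometric mean. For Foxa1 the MaSC arrays spread between 981 and 4731 while the ML arrays stay between 7255 and 7949, and Krt18 is not called.

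Desmosomes and other contacts did not follow 1 direction, with 11 of 28 tested higher in MaSC and 4 lower. The gap junction gene Gjc1 was 44.6-fold and Gja1 1.86-fold higher. Cadherins of mesenchymal cells were higher, with Cdh11 at 432, 570 and 441 in MaSC and 13.1, 9.26 and 12.5 in ML, 41.6-fold (17.9-fold with 16 added), and Cdh2 2.47-fold. Within the nectins, which start cell contacts, Nectin3 was 16.9-fold and Nectin1 3.75-fold higher while Nectin4 was 5.12-fold and Nectin2 2.23-fold lower. Plakophilins, which bind desmosomal cadherins, were split too, with Pkp1 1.82-fold higher and Pkp2 3.59-fold lower. Desmoplakin (Dsp) and plakoglobin (Jup) were not called (adjusted p = 0.495 and 0.756).

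Over all genes, the largest differences with 16 added were led in MaSC by Cnn1, Fmod, the sodium channel Scn7a, Col14a1, the anthrax toxin receptor Antxr1, Bcat1, Mmp2, Igfbp3, Postn, Myl9, Myh11 and Fstl1. Bcat1, which starts the breakdown of branched-chain amino acids, measured 3964, 4840 and 5006 in MaSC and 4.92, 11.4 and 9.36 in ML, 568-fold higher, or 188-fold with 16 added. Scn7a measured 8761, 9541 and 9555 in MaSC and 14.2, 27.4 and 65.4 in ML, 316-fold higher (196-fold with 16 added). In the other direction the 12 genes were Ttc6, Snhg11, Olfm4, Sfi1, Dpep3, Ccdc162, Atg9b, Mapk12, Muc16, Nrxn3, Naip6 and Agxt2. Of the 2 passing probe sets of Sfi1, 1 was called lower, at -3.70 log2, and the other, at 0.29 log2, was not called. Ttc6, which lies beside Foxa1 in the genome, measured 271, 140 and 89.4 in MaSC and 4588, 3357 and 4188 in ML, 26.7-fold lower (adjusted p = 0.000166). The noncoding host gene Snhg11 measured 184, 103 and 287 in MaSC and 4420, 3633 and 3215 in ML, 21.2-fold lower. The neuronal adhesion gene Nrxn3 measured 452, 498 and 135 in MaSC and 3732, 2343 and 4227 in ML, 10.7-fold lower. No arrays overlapped for any of these 24 genes, which the rule required. Muc16, a mucin of luminal surfaces, was 11.4-fold lower and the secreted glycoprotein Olfm4 15.1-fold. Each of the 24 genes stayed called in every alternative run, which their choice by size on these same arrays made likely.

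Guidance cues of axons, which also act in duct branching, were higher in MaSC in 21 of 44 tested and lower in 6. Slit2 measured 2363, 3128 and 3238 in MaSC and 203, 68.8 and 70.1 in ML, 29-fold higher, and Slit3 was 20.4-fold higher. The semaphorins Sema6d, Sema5a and Sema6a were 110-fold, 51.2-fold and 35.4-fold higher, and the receptors Ephb1 and Nrp2 109-fold and 38-fold. Sema7a, Sema4a and Sema4d were 4.82-fold, 2.02-fold and 1.77-fold lower. Of 12 Schwann cell and nerve markers, 8 were higher in MaSC and 3 lower, with a median of 1.95 log2. Drp2 measured 1862, 2926 and 2611 in MaSC and 59.2, 20.8 and 14.1 in ML, 93.5-fold higher, or 55.8-fold with 16 added. Mal, a membrane protein found in myelin and in polarized epithelia, measured 725, 736 and 268 in MaSC and 2182, 2527 and 2865 in ML, 4.8-fold lower. The adhesion molecule Ncam1 was 9.06-fold, the myelin protein Pmp22 6.91-fold and Sox10, which mammary progenitors also express, 2.52-fold higher.

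Of 30 ion transport genes tested, 8 were higher in MaSC and 11 lower, shares near those of all genes (27.1% and 32.4%). The potassium channel Kcnq5 measured 3726, 4151 and 4886 in MaSC and 12.8, 14.2 and 33.6 in ML, 231-fold higher (121-fold with 16 added), and Kcna1 was 27.3-fold higher. The epithelial sodium channel chains Scnn1a and Scnn1b were 4.1-fold and 3.92-fold lower, and the sodium pump regulators were opposed, with Fxyd1 20.3-fold higher and Fxyd4 and Fxyd2 11.4-fold and 4.26-fold lower. Motile cilium genes were lower in 10 of 19 tested and higher in 2 (1 without MaSC replicate 3). Only these 19 of 40 with a probe set passed the filter on low values. Dnah5, below it, measured 38, 37.4 and 36.5 in MaSC and 30, 19.8 and 58.8 in ML. Hydin, also below it, measured 8.36, 16.6 and 4.39 in MaSC and 7.74, 3.11 and 8.52 in ML. The axonemal dynein chain Dnaic1 measured 1666, 929 and 184 in MaSC and 3752, 5182 and 3812 in ML, 6.38-fold lower. The radial spoke gene Rsph4a was 8.56-fold lower, and the regulators Rfx2 and Rfx3 2.53-fold and 2.05-fold lower. Foxj1, the master factor of motile cilia, went the other way, at 243, 165 and 258 in MaSC and 29.9, 63.6 and 38.1 in ML, 5.23-fold higher.

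Among metabolic genes, those of cholesterol moved one way. Cholesterol synthesis and uptake genes were lower in 16 of 23 tested and higher in 0, with a median of -0.80 log2. Farnesyl diphosphate synthase (Fdps) measured 1718, 728 and 616 in MaSC and 3084, 2239 and 3871 in ML, 3.26-fold lower, and Tm7sf2 was 5.11-fold, Nsdhl 2.63-fold and Lss 2.49-fold lower. Fatty acid and triglyceride genes were split, 9 higher and 14 lower of 33, against 27.1% and 32.4% of all genes. The carrier Fabp3 was 15.4-fold and the desaturase Fads1 3.29-fold higher, while the triglyceride enzymes Gpam and Dgat2 were 2.33-fold and 2.28-fold lower. Of glycolysis and hypoxia genes, Ldhb measured 3706, 4126 and 4488 in MaSC and 447, 283 and 470 in ML, 10.5-fold higher, and Pfkp was 3.11-fold higher. Respiratory chain genes were lower in 22 of 48 tested and higher in 1, with a median of -0.19 log2. Median centring raised the number lower to 42, the fit of the 6 arrays reduced it to 9, and 0 were higher without MaSC replicate 2, MaSC replicate 3, ML replicate 2 or ML replicate 3. Ribosomal protein genes were called in 1 of 29, with a median of -0.02 log2.

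Chemokines and cytokines were higher in 18 of 47 tested and lower in 10, against 27.1% and 32.4% of all genes. Cxcl14 measured 13059, 13644 and 12541 in MaSC and 138, 58.9 and 499 in ML, 82-fold higher. The monocyte attractants Ccl2 and Ccl7 were 25.8-fold and 14.3-fold higher, Cxcl12 16.7-fold and Tslp 13.9-fold. Tnfrsf11a, the receptor RANK through which progesterone reaches basal and progenitor cells, measured 127, 206 and 159 in MaSC and 27.6, 22.6 and 40.1 in ML, 5.51-fold higher (adjusted p = 0.000194). Cxcl5, Tlr4 and Il15 were 6.92-fold, 3.39-fold and 3.74-fold lower. Of interferon response and antigen presentation genes, 6 of 33 were higher and 12 lower, the latter near the share of all genes (32.4%). Usp18, Rsad2 and the class I peptide pump chain Tap2 were 5.54-fold, 4.33-fold and 3.43-fold lower, while the class II invariant chain Cd74 was 7.04-fold and H2-Ab1 4.07-fold higher.

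Markers of leukocytes were read beside these results. Of 13 tested, 0 were higher in MaSC and 1 was lower, with mean log2 intensities of 7.00, 7.31 and 7.50 in MaSC and 6.65, 6.99 and 6.85 in ML and a median of 0.90 log2. With only the 6 arrays in the fit, 5 were higher and 3 lower. Ptprc, which encodes CD45, was below the filter at 19.1, 15.7 and 24 in MaSC and 23.7, 17.6 and 11.2 in ML. Tyrobp, an adaptor of myeloid cells, measured 67.9, 105 and 263 in MaSC and 24.2, 54.1 and 48.4 in ML and was not called (adjusted p = 0.277). The part of leukocytes in the cytokine and class II values was not tested. Endothelial markers were higher in 2 and lower in 2 of 17 (1 higher without MaSC replicate 3), and Pecam1, which encodes CD31, was below the filter at 15.9, 12.6 and 13.5 in MaSC and 29.4, 22.3 and 24.4 in ML.

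Genes of the LP and alveolar programmes did not set MaSC apart from ML in most cases, with 9 of 28 higher and 3 lower. Il6 was 20.3-fold higher in MaSC. Kit, a receptor of luminal progenitors, measured 1980, 1227 and 598 in MaSC, 1708, 1255 and 1783 in ML and 4265, 3966 and 3706 in LP, and the MaSC and ML difference was not called (adjusted p = 0.222) except without MaSC replicate 1 (adjusted p = 0.0104). Aldh1a3 measured 7603, 5598 and 3661 in MaSC, 6230, 5670 and 7073 in ML and 11896, 12265 and 11258 in LP (adjusted p = 0.518 for MaSC and ML). Of 18 milk genes, 4 were higher and 1 lower in MaSC, with Xdh, which coats milk fat, 2.68-fold higher. Without MaSC replicate 1, 5 LP and alveolar genes and 4 milk genes were lower. Without MaSC replicate 3 or ML replicate 1, 1 LP and alveolar gene and 0 milk genes were lower, and without ML replicate 3, 1 LP and alveolar gene was.

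Cell cycle genes varied among replicates of both populations. Of 39 DNA replication and mitosis genes, 3 were higher and 6 lower, although the median was -0.68 log2. Mki67 measured 328, 41.2 and 262 in MaSC and 329, 107 and 460 in ML (adjusted p = 0.529), with replicate 2 lowest in both. Without MaSC replicate 1, 11 of the list were lower, without MaSC replicate 2 or ML replicate 1, 3 were, and without ML replicate 3, 2 were. Cyclin D2 (Ccnd2) measured 4185, 4890 and 5591 in MaSC and 32.9, 19.2 and 221 in ML, 93.6-fold higher (adjusted p = 9.56e-05), and Cdk6, its kinase partner, was 2.03-fold higher. Among inhibitors and p53 targets, Phlda3 was 23-fold and Sesn2 6.48-fold higher while Cdkn2b and Sesn1 were 3.1-fold and 2.25-fold lower.

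Genes that tissue digestion can switch on were checked beside these results. Of 35 tested, 13 were higher and 8 lower in MaSC, against 27.1% and 32.4% of all genes, with a median of 0.09 log2. After median centring, 7 were higher and 12 lower. Without MaSC replicate 3 or without ML replicate 3, 11 were higher and 5 lower. Fos measured 7343, 7789 and 4856 in MaSC and 10049, 8935 and 10578 in ML, and Jun 8221, 7771 and 6491 in MaSC and 9437, 10357 and 10841 in ML. Jun was 1.37-fold lower and Fos 1.51-fold lower, while Egr1 was not called (adjusted p = 0.733). Egr3, Fosl1 and Dusp5 were 4.6-fold, 3.17-fold and 2.33-fold higher. The part of tissue digestion in these values was not tested.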

How the data were processed

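RNA of FACS-sorted cells (RNeasy kit) was amplified with the NuGEN Ovation V2 system and hybridised to Affymetrix Mouse Genome arrays. The authors deposited 1 table of intensity values on a linear scale, 1 column per array, normalised by dChip (version and settings not given in the sources used here), with no detection calls. Of 45101 probe sets, 34945 had 1 gene symbol in the platform annotation, 932 had several and 9160 none. Intensities were floored at 1 and log2-transformed. Probe sets had to lie above the array median on at least 3 of the 15 arrays, and the brightest passing probe set stood for each of 12143 genes. limma 3.58.1 (lmFit and eBayes, R 4.3.3) fitted 1 mean per population over all 15 arrays, two-sided, with Benjamini-Hochberg adjustment and a threshold of 0.05, and was tested on simulated data. MaSC and ML each had 3 arrays, whose number limits the precision. For some of the largest differences the fold with 16 added is given too, since values near the floor inflate a fold.

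The genes named over all lists were the 12 per direction with the largest difference with 16 added, called, at least 2-fold and without overlap. The 47 gene lists and all members were chosen with earlier results of these data known. Comparisons of LP with MaSC or ML share arrays with this one, so only LP levels are given. Alternatives changed the normalisation, the floor, the filter, the probe set, the arrays fitted, the variance model and the replicate block, or left out 1 array. Promoter sequences came from RefSeq (GRCm38.p6).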

Additional observations from a re-analysis of the deposited data

How the results depend on the processing

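The 7228 genes called as deposited became 7374 after quantile normalisation (40.2% of them higher in MaSC), 7556 after median centring (27.9% higher, 2109 genes), 7227 with 16 added, 7223 with a floor of 16, 7559 of 18193 with no filter, 6285 with only the 6 arrays in the fit and 7240 with the 9 arrays of MaSC, LP and ML. The count of genes called at 2-fold or more lay between 3218 and 3967 under these alternatives and those of filter, probe set and variance model. Leaving out 1 array gave 6344 to 7116 calls, of which 2970 to 3153 were higher in MaSC, and 2973 to 3759 at 2-fold or more. All 24 genes chosen over all lists stayed called in the same direction in each of the 18 alternatives, but they were picked as the largest differences on these same arrays. Among the other genes named, Btc, Cd24a, Cxcl5, Elf5, Epcam, Fos, Foxa1, Fxyd4, Hes1, Krt8, Pgr and Tlr4 lost their calls when only the 6 arrays were fitted. After median centring Cdh1, Ctnnb1, Egr1, Fgfr2, Itgav, Krt18, Notch1, Tgfbr2 and Tjp1, not called as deposited, were called lower in MaSC. With the 9 arrays, Cited1, Elf5 and Epcam lost their calls and Tyrobp was called higher in MaSC. Of 3404 called genes with several passing probe sets, 79 had one called the other way. Only 3 arrays per population and no detection calls limit what dim genes can show.

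With the replicate number as a block (replicate block), 6999 genes were called and 3381 at 2-fold or more. Deviations from the population means correlated at 0.173, 0.044 and -0.011 between MaSC and ML arrays of the same number and at -0.125 to 0.079 between those of different numbers, so the numbers were not taken as pairs.

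Counts of several lists moved by more than 1.5 times under another setting. After median centring, 3 hormone receptor genes were higher and 13 lower, 5 ion transport genes higher and 13 lower, 7 desmosome genes lower, 26 tight junction genes lower and 0 higher, 15 ribosomal protein genes lower, and 10 replication genes lower. With only the 6 arrays in the fit, 3 hormone receptor genes were higher and 7 lower, 10 interferon and antigen presentation genes higher and 14 lower, 4 cytokine genes lower, 7 ion transport genes lower, 10 stress genes higher and 4 lower, 3 replication genes lower, and 7 LP and alveolar genes higher with 0 lower. With a gene's probe sets averaged, 5 ribosomal protein genes were higher and 2 cholesterol genes were higher. Median centring also gave 4 luminal transcription factors higher, 2 basal identity, 3 milk, 2 integrin, 4 fibroblast, 4 pericyte and 4 endothelial genes lower, and 1 motile cilium gene higher. With the 9 arrays, 5 Wnt receptor and target genes were lower, 10 interferon and antigen presentation genes higher, 5 leukocyte markers higher and 2 lower, 4 endothelial markers lower, 1 LP and alveolar gene lower and 3 replication genes lower.

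With 16 added, Adam12 was 50.4-fold, Adam19 40.8, Adamts5 37.2, Axin2 11.3, Cacna1c 38.5, Ccl2 13.9, Ccl7 8.59, Col5a2 108, Ephb1 60.2, Fxyd1 11.5, Gjc1 27.3, Hgf 10.3, Il6 6.64, Itga9 47.2, Kcna1 12.6, Kcnmb1 16.2, Lama1 27.6, Lgr5 45.2, Lox 26.2, Ltbp4 50.8, Pdgfrb 21.4, Prrx1 30.9, Rgs5 16.1, Sema6d 67, Slit3 11.6, Sox7 16.4, Tslp 7.31 and Twist1 8.38-fold higher in MaSC and Vegfd 5.84-fold lower.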
